A study of Mus musculus with 9 samples.

Results

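Regulatory T cells lacking the deubiquitinase Usp21 were compared with wild-type regulatory T cells, using 3 Usp21 KO and 3 WT libraries out of the 9 libraries of the series. The 6 libraries were taken from the genotype labels, so no measured value chose them. Usp21 KO replicate 2 is treated apart because earlier results of these same data had singled it out by its effector and naive genes, so its distance from the other libraries is given below as a description. All cells were Foxp3-positive T cells sorted from mouse spleen by a YFP reporter in Foxp3, and the design text calls them naive natural Treg cells. The Usp21 KO group carries the genotype label "Usp21 Treg KO" and the control group the label WT, and no treatment is listed. The other 3 libraries (dKO) lack both Usp21 and Usp22 in Treg cells, entered the fit for the estimate of the spread, and are named below only where their level bears on a Usp21 KO value. The age, sex, strain and litter of the mice, the allele and the Cre driver are not given in the sources used here, nor is whether the WT mice carried the same reporter and Cre alleles. The labels call the libraries separate biological samples. Below, KO1, KO2 and KO3 are Usp21 KO replicates 1 to 3, and WT1, WT2 and WT3 the WT replicates.

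Usp21 is a ubiquitin-specific protease that removes ubiquitin from histone H2A and from signalling and transcription factor proteins. In Treg cells it is known for stabilising the Foxp3 protein, the transcription factor that defines the lineage. Resting Treg cells carry homing receptors such as Ccr7 and recirculate through lymphoid organs, whereas effector Treg cells divide, lose such receptors and take up genes such as Klrg1, Gzmb and Itgae. Loss of a deubiquitinase acts on protein, so an RNA count table shows its effect on transcripts only.

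The libraries held between 18067377 and 40334577 counted reads, and 14994 of the 54232 genes in the table passed the filter on low counts and were tested. Levels are given as CPM, the counts scaled to library size with TMM factors, and differences as log2 fold changes. Foxp3 was present in all 6 libraries, at 668, 689 and 622 CPM in WT and 827, 693 and 669 CPM in Usp21 KO. Cd3e, a chain of the T cell receptor complex, was at 558, 531 and 552 CPM in WT and 519, 566 and 557 CPM in Usp21 KO. The labelled cell type therefore had its defining transcripts in each library. Usp22, the related deubiquitinase that the dKO mice lack, was at 71.0, 72.8 and 69.4 CPM in WT and 82.1, 64.8 and 74.4 CPM in Usp21 KO, and the ranges overlapped.

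Usp21 itself fell in every Usp21 KO library. It lies at chr1:171281945-171287991 on mm10 and was measured at 66.2, 63.0 and 60.8 CPM in WT and 28.1, 23.1 and 24.97 CPM in Usp21 KO. The means were 63.3 ± 2.72 CPM in WT and 25.4 ± 2.49 CPM in Usp21 KO (SD, n = 3 each), and the groups did not overlap. The log2 fold change was -1.31 ± 0.09 (SE) with an adjusted p of 3.71e-04 in edgeR's quasi-likelihood test over all genes tested. The KO libraries kept 44.3%, 36.6% and 39.4% of the WT mean, and KO2 was the lowest of the 3 by a small margin. Reads over the whole gene were counted, so the remaining level does not say which exons were left.

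Across all genes most differences were small. The quartiles over genes of the log2 fold change of Usp21 KO against WT were -0.13 and 0.15. Its median was 0.0061, which the scaling of the libraries sets near 0, so it does not measure a shift common to all genes. Only 2 genes passed at an adjusted p under 0.05, which is 0.0133% of those tested, Usp21 lower and the long non-coding RNA 5830416I19Rik higher. At an unadjusted p under 0.05 there were 1596 genes (10.6%), of which 944 were higher (6.3%) and 652 lower (4.35%). A difference above 2-fold was reached by 669 genes, 504 of them higher and 165 lower. Most of these had few reads: at a mean log2 CPM of at least 1, 195 were higher and 21 lower. DESeq2 on the same libraries called 216 genes (1.44%), 133 higher and 83 lower, so the number called depends on the tool, whereas the number called with limma voom was 2.

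The set of differing genes changed when KO2 was left out. Leaving KO2 out changed the number of genes passing from 2 to 17 of 15541 tested (0.109%), 6 higher and 11 lower. In edgeR's test the balance at an unadjusted p under 0.05 turned from mainly higher to mainly lower. There were 1509 such genes (9.71%), of which 675 were higher (4.34%) and 834 lower (5.37%). Genes above 2-fold then numbered 628, of which 260 were higher and 368 lower. The quartiles of the log2 fold changes were -0.14 and 0.12 without KO2. Leaving out KO3 gave 4 genes passing, and leaving out KO1 or any 1 of the WT libraries gave 2. These changes depended on the tool. In DESeq2, 1047 genes were higher and 636 lower at an unadjusted p under 0.05 with KO2. Without KO2 they were near even in DESeq2, at 670 and 674, and genes passing went from 216 to 201.

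**Figure D1:**
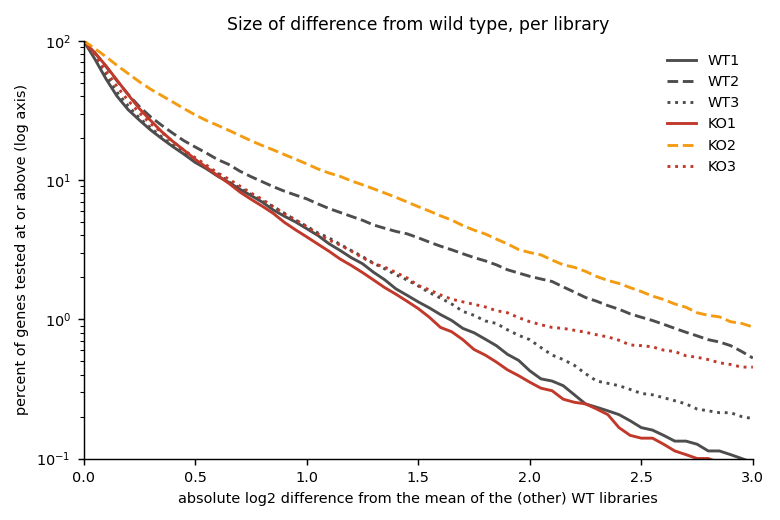
For each of the 6 libraries, the vertical axis (log scale) gives the percent of genes tested whose log2 CPM differed from the mean of the WT libraries, or of the other WT libraries for a WT library, by at least the value on the horizontal axis. The KO2 curve lies above the other 5, with 13.1% of genes past 1 log2 unit, while KO1 with 3.91% and KO3 with 4.62% do not exceed the highest of the WT curves, which are at 4.48%, 7.32% and 4.66%.

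The difference of each library from the WT mean shows the same contrast. KO2 differed by more than 2-fold in 1957 genes, or 13.1% of those tested. KO1 did so in 3.91% and KO3 in 4.62%, while the 3 WT libraries, each set against the mean of the other WT libraries, did so in 4.48%, 7.32% and 4.66%. By this count KO1 and KO3 lay no farther from WT than the WT libraries lay from each other. The spread of these differences over genes, as an interquartile range of log2 values, was 0.52 in KO2, 0.32 in KO1 and 0.27 in KO3, against 0.22 to 0.31 in WT. A WT library was compared with the mean of 2 libraries and a KO library with the mean of 3, which makes the WT values slightly wider.

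Between pairs of libraries, the root mean square difference in log2 CPM ran from 0.43 to 0.64 within WT and was 0.57 between KO1 and KO3. Every pair that held KO2 was at 0.74 or above, up to 0.94 against WT2. Pairs of 1 WT library and either KO1 or KO3 ranged from 0.49 to 0.72. KO3 was nearest to WT3 and KO1 nearest to WT2.

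**Figure D2:**
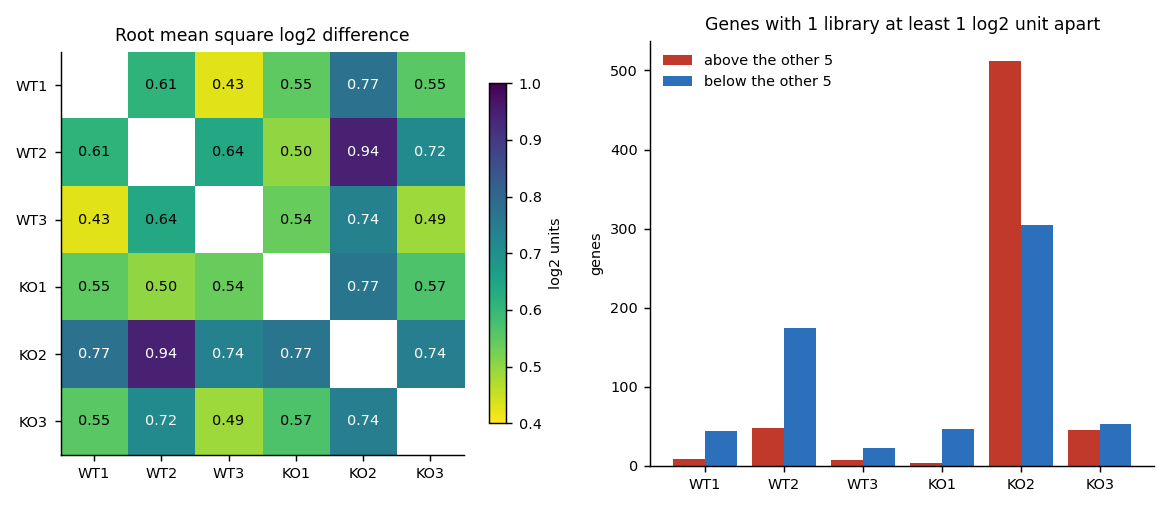
Left, root mean square log2 CPM difference over the genes tested for each pair of the 6 libraries; right, the number of genes in which 1 library lay above (red) or below (blue) all other 5 by at least 1 log2 unit. The row of KO2 holds the largest distances, and KO2 has 512 genes above and 305 below.

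Counted gene by gene, KO2 stood at least 1 log2 unit beyond the other 5 libraries in 817 genes, 512 above and 305 below. The same count was 50 for KO1, 98 for KO3, 52 for WT1, 222 for WT2 and 30 for WT3. WT2 was the next most distinct library after KO2. Of the 504 genes more than 2-fold higher in the fit, KO2 was the farthest of the 3 KO libraries from WT in 386 (76.6%), and in 66 only KO2 lay above all WT libraries. In 213 of them all 3 KO libraries lay above all 3 WT libraries. Of the 165 genes more than 2-fold lower, KO2 was the farthest in 77, and in 76 all 3 KO libraries lay below all 3 WT libraries.

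Genes in which all 3 KO libraries lay beyond all 3 WT libraries, with no minimum gap, numbered 1208 above (8.06%) and 1200 below (8.0%). With a gap of at least 0.5 log2 units between the nearest libraries of the groups, 68 genes lay above (0.454%) and 29 below (0.193%). KO2 was the farthest of the 3 in 48 of the 68 and in 18 of the 29. Of the 68, 44 were protein coding and 17 were immunoglobulin segments. A mean log2 CPM of at least 1 was reached by 27 of the 68 and 9 of the 29. These 97 genes are shared by the 3 KO libraries in direction, and in most of them KO2 was the farthest from WT.

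5830416I19Rik, a long intergenic non-coding RNA at chr5:64044978-64050228, was nearly absent in WT and present in each Usp21 KO library. It was at 0.191, 0.258 and 0.0506 CPM in WT and 4.99, 8.65 and 5.30 CPM in Usp21 KO. The means were 0.166 ± 0.106 CPM and 6.31 ± 2.03 CPM (SD, n = 3 each), with a log2 fold change of 5.31 ± 0.46 and an adjusted p of 0.00217 in edgeR's test. The call was lost in the fit of the 6 libraries alone, where the log2 fold change of 5830416I19Rik was 5.30 with an adjusted p of 0.0944 in edgeR's test. The dKO libraries, which also lack Usp21, were at 2.92, 2.30 and 2.70 CPM. Its neighbour Rell1, a membrane protein related to the TNF receptor family member RELT, starts 136 kb away. Rell1 was at 10.6, 7.86 and 10.2 CPM in WT and 20.4, 38.5 and 17.7 CPM in Usp21 KO, with no overlap, and was at 21.02, 17.8 and 22.3 CPM in dKO. It passed only without KO2, with a log2 fold change of 0.99 ± 0.14 and an adjusted p of 0.0152 in edgeR's test.

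**Figure D3:**
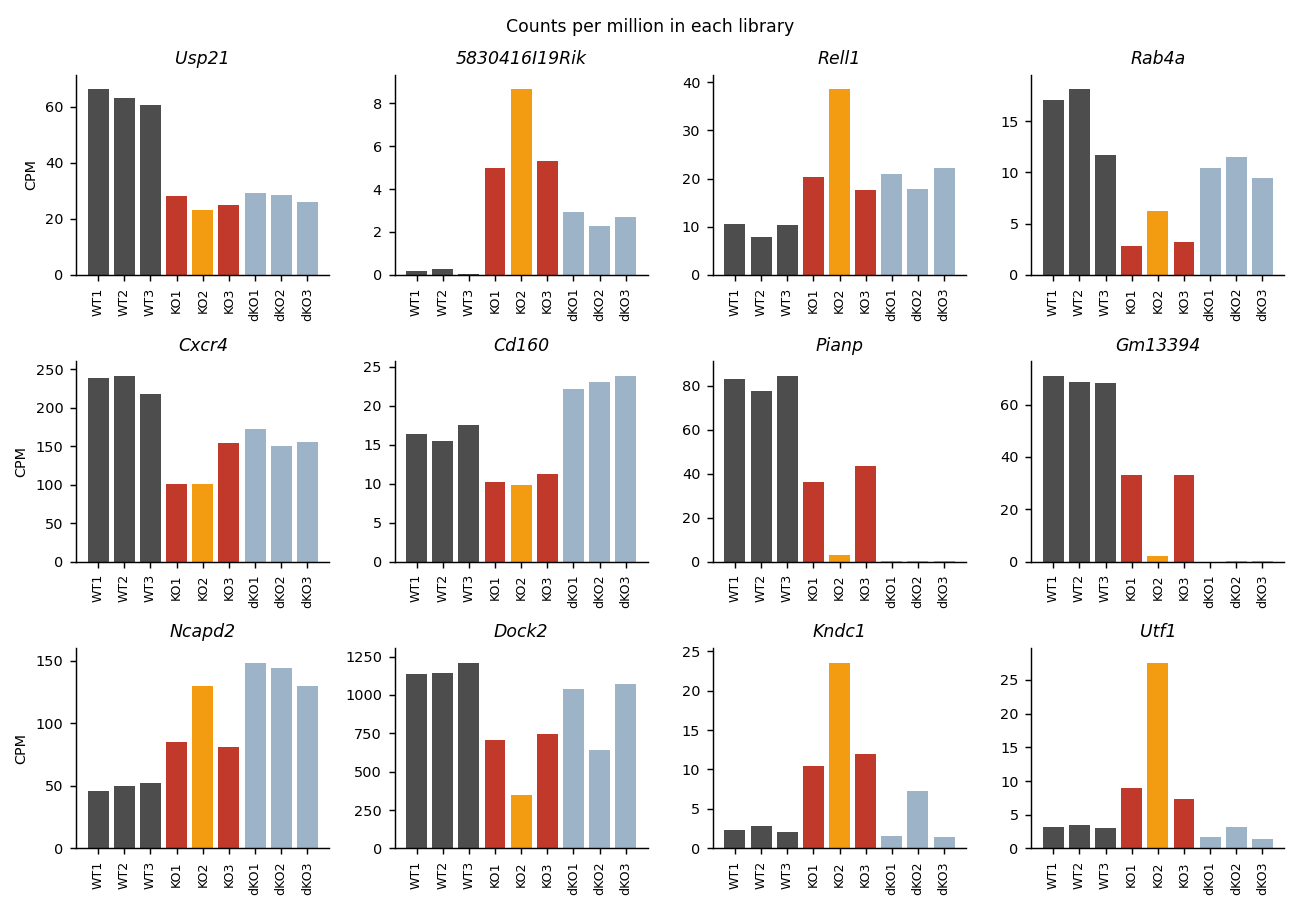
Bars show CPM in each of the 9 libraries for 12 genes, each on its own axis from 0; grey is WT, red is Usp21 KO replicates 1 and 3, orange is KO2 and light blue is dKO. Usp21, Rab4a, Cxcr4 and Cd160 are lower in all 3 Usp21 KO libraries, while Pianp, Gm13394, Ncapd2, Dock2, Kndc1 and Utf1 lie farther from WT in KO2 than in KO1 and KO3.

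Several genes were lower in all 3 KO libraries than in any WT library. Rab4a, a small GTPase of endosome recycling, was at 17.1, 18.1 and 11.7 CPM in WT and 2.77, 6.22 and 3.16 CPM in Usp21 KO. KO2 was the KO library nearest to WT. It fell in the fit without KO2 (log2 fold change -2.41 ± 0.21, adjusted p = 9.23e-05, edgeR), and the value with all 3 KO libraries was -1.96 ± 0.30 (adjusted p = 0.197 in edgeR and 1.07e-07 in DESeq2). In dKO it was at 10.4, 11.5 and 9.50 CPM, between the other groups.

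Cd160, a receptor for the TNF superfamily receptor HVEM found on cytotoxic lymphocytes, was at 16.4, 15.5 and 17.5 CPM in WT and 10.2, 9.85 and 11.3 CPM in Usp21 KO. It fell without KO2, with a log2 fold change of -0.63 ± 0.11 and an adjusted p of 0.0494 in edgeR's test. The 3 KO libraries were close together and below every WT library, whereas the dKO libraries were at 22.1, 23.1 and 23.8 CPM, above WT. Cxcr4, the receptor for the chemokine CXCL12, was at 239, 241 and 218 CPM in WT and 101.3, 100.8 and 154 CPM in Usp21 KO. The groups did not overlap, and KO2 was close to KO1, but Cxcr4 passed in neither fit (adjusted p = 0.197 with KO2 and 0.117 without, edgeR). DESeq2 with all 3 KO libraries called Cxcr4, with an adjusted p of 6.14e-07, and Cd160, with one of 3.68e-05. Amica1, an adhesion molecule of leukocytes, was at 8.81, 10.7 and 11.4 CPM in WT and 5.87, 3.44 and 4.68 CPM in Usp21 KO and also missed the threshold in both edgeR fits, as did Pstpip2, an adaptor of the actin cytoskeleton. DESeq2 called Amica1, with an adjusted p of 6.73e-04, and gave 0.412 for Pstpip2.

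Among genes higher in the 3 KO libraries, Kcna2, a voltage-gated potassium channel, was at 5.81, 4.35 and 3.82 CPM in WT and 8.86, 11.6 and 11.9 CPM in Usp21 KO. Its adjusted p was 0.197 with KO2 and 0.0546 without it in edgeR's test, so it passed in neither, and 3.68e-05 in DESeq2. Lrrc8b, a subunit of the volume-regulated anion channel, was at 13.1, 12.1 and 14.5 CPM in WT and 20.7, 37.4 and 21.9 CPM in Usp21 KO and rose without KO2 (log2 fold change 0.67 ± 0.11, adjusted p = 0.0413, edgeR). For Lrrc8b, KO2 lay farther from WT than KO1 and KO3 did. Unc5a, a netrin receptor, was at 1.86, 2.69 and 2.96 CPM in WT and 5.54, 7.89 and 4.68 CPM in Usp21 KO, and missed the threshold in both edgeR fits and in DESeq2 (adjusted p = 0.0688). Fam64a, a regulator of mitotic exit, was at 1.24, 1.48 and 1.95 CPM in WT and 3.55, 7.31 and 3.44 CPM in Usp21 KO, and passed in DESeq2 (adjusted p = 0.00187) but in neither edgeR fit. The other picked genes higher in all 3 KO libraries were Iqgap3, Lrrc49, Pdlim4 and Plxdc1, in each of which KO2 was the highest of the 6 WT and Usp21 KO libraries. Pdlim4, a protein of the actin cytoskeleton, was at 0.381, 0.664 and 0.986 CPM in WT and 1.61, 5.12 and 2.03 CPM in Usp21 KO, and none of the 4 passed in either edgeR fit, whereas DESeq2 called all 4, with adjusted p from 0.00806 for Pdlim4 to 0.0178 for Iqgap3.

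Arl6ip5, a membrane protein of the endoplasmic reticulum, was at 296, 269 and 282 CPM in WT and 207, 239 and 224 CPM in Usp21 KO. It fell without KO2 by a log2 fold change of -0.40 ± 0.07 (adjusted p = 0.0494, edgeR), and all 3 KO libraries were below all WT libraries. Ston1, an endocytic adaptor, was at 27.6, 33.4 and 33.9 CPM in WT and 19.9, 24.5 and 19.7 CPM in Usp21 KO, and Ecm1, a secreted matrix protein on the Treg identity list, was at 298, 297 and 285 CPM in WT and 219.9, 99.3 and 194 CPM in Usp21 KO. Both fell without KO2, with adjusted p of 0.0459 and 0.0331 in edgeR's test. In Ecm1, KO2 was the lowest library, and in Ston1 it was the KO library nearest to WT.

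Another kind of gene had KO1 and KO3 together near the middle and KO2 at the far end. On chromosome 6, Pianp, a membrane protein first described in the nervous system, was at 83.2, 77.5 and 84.3 CPM in WT and 36.4, 2.82 and 43.3 CPM in Usp21 KO. The KO libraries held 44.6%, 3.46% and 53.1% of the WT mean, and dKO was at 0.215, 0.147 and 0.353 CPM. The order of the groups was WT above KO1 and KO3, above KO2, above dKO. Pianp fell without KO2 (log2 fold change -1.05 ± 0.11, adjusted p = 5.62e-04, edgeR), whereas with KO2 the spread among the KO libraries gave an adjusted p of 0.504. Ncapd2, a subunit of the condensin complex that compacts mitotic chromosomes, starts 171 kb from Pianp and moved the other way. It was at 46.0, 49.8 and 52.3 CPM in WT, 85.0, 130.1 and 80.7 CPM in Usp21 KO and 148, 144 and 129.8 CPM in dKO. Ncapd2 rose without KO2 with a log2 fold change of 0.74 ± 0.08 and an adjusted p of 8.38e-04 in edgeR's test.

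Gm13394, a processed pseudogene at chr2:28933610-28934609, had nearly the same profile as Pianp on another chromosome. It was at 70.9, 68.8 and 68.2 CPM in WT, 33.3, 2.01 and 33.1 CPM in Usp21 KO and 0.0307, 0.0977 and 0.0882 CPM in dKO, and fell without KO2 (log2 fold change -1.07 ± 0.09, adjusted p = 9.23e-05, edgeR). Its annotated sequence of 1000 bases matches the Gapdh transcript Gapdh-201 at 999 bases, a 99.9% identity. The single difference is A438C, with Gapdh positions counted from 1 at the start of the transcript, and it lies in the Gapdh coding sequence. The 2 stretches are shown because within the matched stretch a read can be told apart only where it covers this base, which the capital marks:
Gapdh: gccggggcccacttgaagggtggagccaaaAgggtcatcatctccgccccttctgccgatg
Gm13394: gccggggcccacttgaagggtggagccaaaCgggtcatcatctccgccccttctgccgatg

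Reads of such near-identical copies can be split or dropped in counting, so the level of either copy is uncertain. Gapdh, the glycolytic enzyme, starts 6.29 kb from Ncapd2 and was at only 11.5, 18.2 and 10.6 CPM in WT and 22.2, 15.4 and 11.2 CPM in Usp21 KO, with overlapping groups. A further Gapdh pseudogene, Gm12070, differs from Gapdh-201 at G453A and was at 0, 0.0369 and 0.0253 CPM in WT, 0.332, 0.526 and 0.507 CPM in Usp21 KO and 0.553, 0.684 and 0.823 CPM in dKO. Gm12070 was thus higher where Gm13394 was lower, at far lower levels, and was singled out after its values were seen. Sequences are from GENCODE M21.

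On chromosome 7 KO2 also lay beyond KO1 and KO3, but dKO was not at the far end. Kndc1, a guanine nucleotide exchange factor for Ras first described in brain, was at 2.33, 2.88 and 2.12 CPM in WT and 10.5, 23.5 and 12.01 CPM in Usp21 KO. Utf1, a transcription factor of undifferentiated embryonic cells, starts 49.1 kb from Kndc1 and was at 3.24, 3.54 and 3.08 CPM in WT and 8.89, 27.5 and 7.33 CPM in Usp21 KO. Adam8, a membrane metalloprotease of leukocytes that starts 84.2 kb from Kndc1, was at 26.8, 28.7 and 25.5 CPM in WT and 63.6, 308 and 37.1 CPM in Usp21 KO. In each of the 3 genes all KO libraries were above all WT libraries and KO2 was highest. In dKO, Kndc1 was at 1.598, 7.23 and 1.44 CPM, with 1 library apart from the other 2, Utf1 at 1.69, 3.22 and 1.41 CPM and Adam8 at 24.8, 28.2 and 22.2 CPM. None passed in edgeR's test, with adjusted p between 0.285 and 0.348 for all 3 KO libraries. DESeq2 called Kndc1 (adjusted p = 0.0147) and Utf1 (adjusted p = 0.0016). Adam8 was named after its values were seen.

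Dock2, the Rac activator that lymphocytes need for migration, was at 1138, 1144 and 1207 CPM in WT and 706, 349 and 746 CPM in Usp21 KO. The KO libraries held 60.7%, 30% and 64.1% of the WT mean, with KO2 again farthest. In dKO the levels were 1041, 642 and 1069.9 CPM, so the dKO libraries also differed among themselves. Its adjusted p in edgeR's test was 0.341 with KO2 and 0.409 without. Fam196b, a gene inside the Dock2 interval, was at 0.667, 0.775 and 0.379 CPM in WT and 0.0554, 0 and 0.113 CPM in Usp21 KO. Fam196b was named after its values were seen. Reads of overlapping genes cannot be told apart unless strand is used, and the counting's strand setting is not given in the sources used here.

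Regions around these genes were examined after their values were seen, so the genes whose values led to them are left out of the counts that follow. Of the other genes tested within 1 Mb of Pianp, 11 of 50 had groups that did not overlap (22%), against 16.1% of all genes tested. Within 1 Mb of Kndc1 it was 5 of 22 (22.7%), of Dock2 1 of 6 (16.7%), of 5830416I19Rik 1 of 10 (10%) and of Rab4a 4 of 34 (11.8%). Within 5 Mb of Usp21 it was 15 of 89 (16.9%). These shares lay on both sides of that of all genes tested. By unadjusted p under 0.05 in edgeR's test, the other genes called were 6 of 50 near Pianp and 6 of 22 near Kndc1. They were 2 of 6 near Dock2, 1 of 10 near 5830416I19Rik, 3 of 34 near Rab4a and 8 of 89 near Usp21. The share of all genes tested was 10.6%. The labels give neither strain nor litter, so at the loci of Pianp, Ncapd2, Kndc1, Utf1 and Dock2 a difference in genetic background between the mice and a difference that goes with Usp21 loss cannot be told apart.

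A further kind of gene had KO1 and KO3 apart from WT while KO2 lay at or near the WT range. Rec8, a cohesin subunit of meiosis, was at 19.6, 22.8 and 19.5 CPM in WT and 35.0, 15.4 and 46.0 CPM in Usp21 KO. KO1 and KO3 were above every WT library and KO2 was below every one. Rasgrf2, an exchange factor for Ras, was at 8.38, 10.7 and 9.51 CPM in WT and 19.3, 11.9 and 20.6 CPM in Usp21 KO, with KO2 only just above the highest WT library. Both rose without KO2, with adjusted p of 0.00367 for Rasgrf2 and 0.00443 for Rec8 in edgeR's test. Their adjusted p with KO2 was 0.262 and 0.529.

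Adk, adenosine kinase, was at 63.8, 61.9 and 61.6 CPM in WT and 42.4, 59.8 and 46.9 CPM in Usp21 KO. Klhdc2, a substrate receptor of a ubiquitin ligase, was at 55.7, 55.2 and 54.5 CPM in WT and 39.7, 51.2 and 40.6 CPM in Usp21 KO. Idua, the lysosomal iduronidase, was at 44.9, 42.8 and 43.0 CPM in WT and 31.0, 37.6 and 31.4 CPM in Usp21 KO. All 3 genes fell without KO2, with adjusted p of 0.0209, 0.0459 and 0.0459 in edgeR's test, and in all 3 KO2 lay between the other KO libraries and WT.

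A larger number of genes stood apart in KO2 alone. The leukotriene B4 receptor Ltb4r1 was at 4.81, 1.99 and 3.57 CPM in WT and 4.71, 32.5 and 3.72 CPM in Usp21 KO. Dgat2, an enzyme of triglyceride synthesis, was at 5.34, 6.01 and 5.71 CPM in WT and 9.97, 57.2 and 5.64 CPM in Usp21 KO. Pparg, the nuclear receptor of adipose tissue Treg cells, was at 1.71, 1.22 and 1.47 CPM in WT and 2.80, 16.3 and 1.92 CPM in Usp21 KO. In each of these KO2 was several times above all other libraries. KO1 lay above the WT range for Dgat2, and KO1 and KO3 lay above it for Pparg, both far below KO2. The 12 picked genes with the widest gaps above the rest also held Lilrb4a, Lilr4b, Erbb2, Npnt, Il17re, Il1r1, Cd163l1, Mmp25 and Zbtb46. Lilrb4a and Lilr4b, inhibitory receptors of leukocytes, are closely similar copies, so their separate values of 79.3 and 62.7 CPM in KO2 are uncertain. None of the 12 passed in either edgeR fit, and DESeq2 called Il17re, Il1r1 and Pparg.

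Il17re, a receptor chain for the cytokine IL-17C, and Il1r1, the interleukin-1 receptor, also lay somewhat above WT in KO1 and KO3. Il17re was at 0.715, 0.443 and 0.733 CPM in WT and 2.05, 11.7 and 1.35 CPM in Usp21 KO. Il1r1 was at 0.762, 0.885 and 1.62 CPM in WT and 2.60, 14.4 and 2.31 CPM in Usp21 KO. Both were higher in all KO libraries than in any WT library, and far higher in KO2.

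Among the genes lowest in KO2, Igfbp4, a binding protein of insulin-like growth factors that marks naive T cells, was at 279.7, 259 and 297 CPM in WT and 338, 27.2 and 352 CPM in Usp21 KO. KO1 and KO3 were above all WT libraries and KO2 was far below. Gsta4, a glutathione transferase, was at 23.4, 26.8 and 23.5 CPM in WT and 16.7, 1.00 and 20.1 CPM in Usp21 KO. Gbp2b, a guanylate-binding protein, was at 15.7, 12.3 and 16.6 CPM in WT and 16.0, 1.43 and 14.9 CPM in Usp21 KO. The other picked genes were Fibcd1, Cecr6, Cnn3, Gprc5b, Sh3bgrl2, Kcnf1, Ntn4, Selp and Pianp, and none of the 12 but Pianp passed in either edgeR fit.

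**Figure D4:**
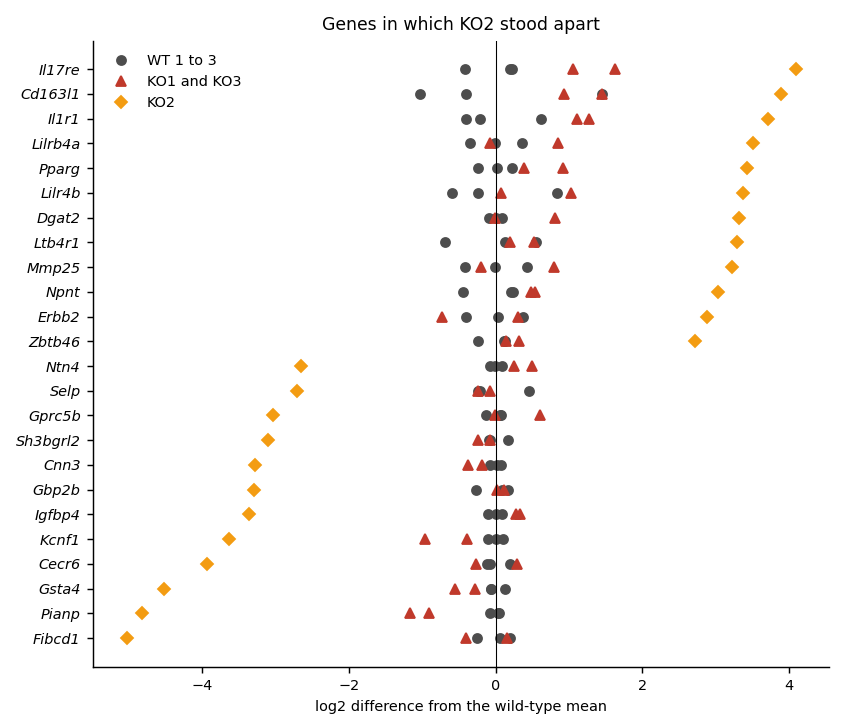
Log2 differences from the WT mean for the 24 genes in which KO2 stood farthest from the other 5 libraries, 12 above and 12 below; orange diamonds are KO2, red triangles KO1 and KO3, grey circles the WT libraries. KO2 lies beyond -2 or 2 in every row shown, while the other libraries lie within 2 of the WT mean.

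KO2 had been singled out by its effector and naive genes, so the values of these lists describe that choice and support nothing further. Over the effector list (40 genes tested) the log2 fold changes had a median of 0.34, and of -0.05 when KO2 was left out. By library its median difference from the WT mean was -0.03, 1.09 and -0.05 in the KO libraries and 0.07, -0.02 and -0.02 in WT. Klrg1, an inhibitory receptor of effector cells, was at 56.8, 48.8 and 44.9 CPM in WT and 48.5, 190.5 and 38.8 CPM in Usp21 KO. Gzmb, a cytotoxic protease, was at 13.3, 7.19 and 11.6 CPM in WT and 16.5, 72.6 and 10.5 CPM in Usp21 KO. Itgae, an integrin of epithelial residence, was at 138, 138 and 113 CPM in WT and 170.2, 366 and 137 CPM in Usp21 KO. Klrg1 was named after its values were seen. No member passed in either edgeR fit; 2 were higher (5%, against 6.3% of all genes tested) and 0 lower at an unadjusted p under 0.05 with KO2. Without KO2, 1 was higher and 7 were lower (17.5%, against 5.47% of the same genes), so the members called lower were more than the share of all genes.

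The naive or resting list (24 genes) had medians by library of -0.10, -0.79 and 0.03 in the KO libraries. Ccr7, the chemokine receptor for lymph node entry, was at 284, 239.5 and 303 CPM in WT and 255, 92.6 and 306 CPM in Usp21 KO. Ccr7 was named after its values were seen. KO2 was far below all other libraries, and KO3 lay just above the WT range. The list's fold changes had a log2 median of -0.24 with KO2 and -0.05 without. Across the T helper list (17 of 24 genes tested) the KO libraries were at -0.02, 0.54 and 0.07 and across the homing receptor list (25 genes) at -0.10, 0.43 and 0.01. In these bulk libraries, more cells of a type and more RNA per cell cannot be told apart.

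**Figure D5:**
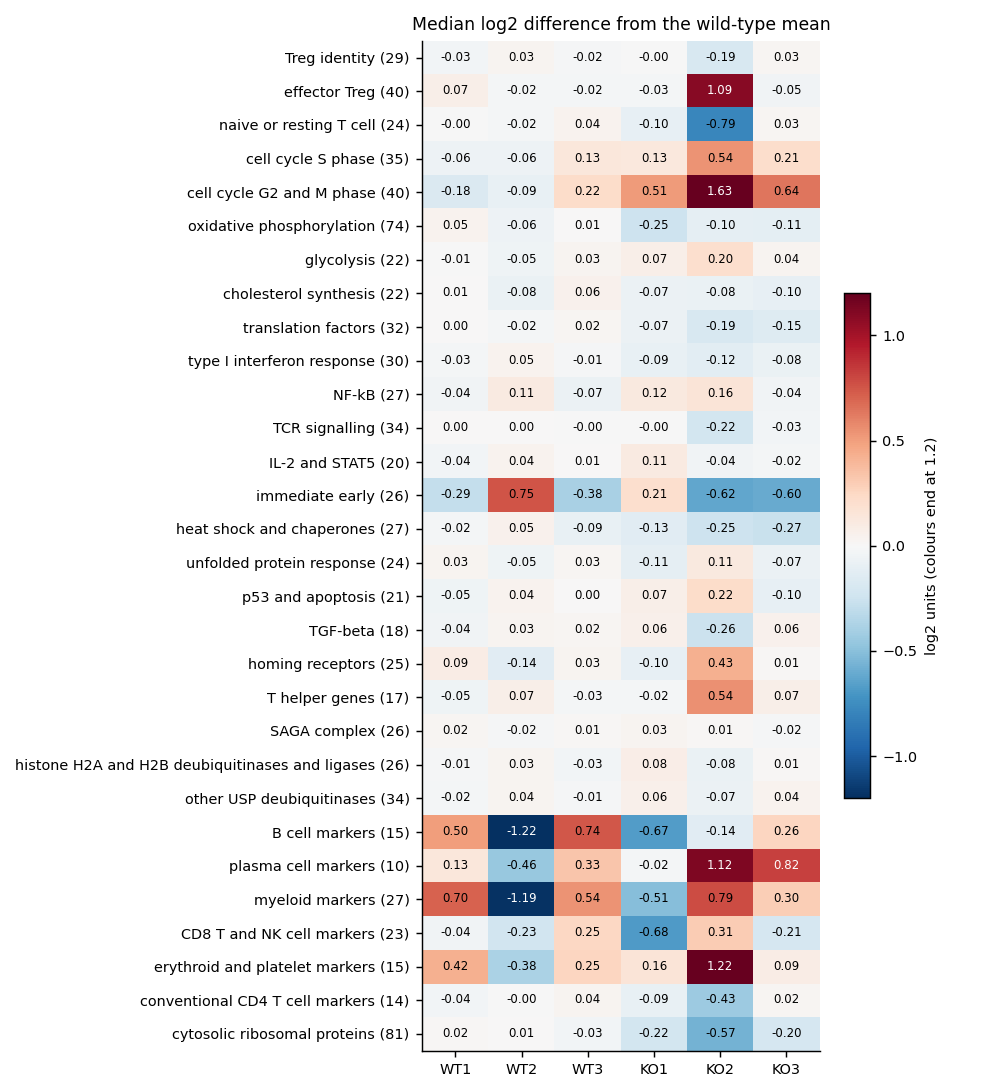
Each cell gives the median log2 difference from the WT mean over the tested members of a gene list (number in parentheses) in 1 library; red is above and blue below the WT mean. G2 and M phase genes are above WT in all 3 KO libraries (0.51, 1.63 and 0.64) and ribosomal proteins below (-0.22, -0.57 and -0.20), whereas the effector and naive lists lie farthest from WT in KO2.

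Genes of the G2 and M phases of the cell cycle were higher in all 3 KO libraries, with KO2 farthest. Of 40 members tested, 36 were higher at an unadjusted p under 0.05 and 0 lower, against 6.3% and 4.35% of all genes tested, and 32 had all KO libraries above all WT libraries, against 8.06% of all genes. The median log2 fold change was 1.05 with KO2 and 0.53 without, when 30 members were higher and 0 lower at that p, against 4.45% and 5.47% of the same genes. By library, the list's median was -0.18, -0.09 and 0.22 in WT, 0.51, 1.63 and 0.64 in Usp21 KO and 1.78, 1.70 and 1.72 in dKO. KO1 and KO3 thus lay above each WT library, and KO2 near the dKO libraries. No member passed at the adjusted threshold in edgeR's test, with or without KO2, while DESeq2 called 19.

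The kinetochore protein Cenpf was at 4.53, 4.83 and 5.84 CPM in WT and 8.31, 15.4 and 10.1 CPM in Usp21 KO. Bub1b, a kinase of the spindle checkpoint, was at 9.29, 12.2 and 12.9 CPM in WT and 17.8, 30.8 and 22.4 CPM in Usp21 KO. Espl1, separase, which cuts cohesin at anaphase, was at 5.34, 4.65 and 5.79 CPM in WT and 9.09, 16.9 and 8.06 CPM in Usp21 KO, and the spindle protein Nusap1 at 5.29, 6.05 and 6.95 CPM in WT and 9.33, 18.2 and 11.2 CPM in Usp21 KO. In all 4 the groups did not overlap, with adjusted p in edgeR's test of 0.204, 0.204, 0.265 and 0.259.

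Promoters of G2 and M phase genes are known to share the CHR element, which with CCAAT boxes is bound by cell cycle regulators. The windows of 300 bases around the start sites of Cenpf (chr1:189688037-189688336, minus strand), Bub1b (chr2:118597961-118598260, plus strand) and Espl1 (chr15:102296043-102296342, plus strand), from RefSeq on GRCm38.p6, are shown because these genes were higher together. Capitals mark TTTGAA (the CHR) and CCAAT, each searched on both strands:
Cenpf: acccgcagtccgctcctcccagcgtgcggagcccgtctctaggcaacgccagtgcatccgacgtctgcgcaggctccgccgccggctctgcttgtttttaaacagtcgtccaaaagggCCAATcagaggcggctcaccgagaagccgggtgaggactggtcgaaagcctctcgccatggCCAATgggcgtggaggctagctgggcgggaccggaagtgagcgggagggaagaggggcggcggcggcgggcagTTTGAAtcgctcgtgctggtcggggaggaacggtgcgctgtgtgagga
Bub1b: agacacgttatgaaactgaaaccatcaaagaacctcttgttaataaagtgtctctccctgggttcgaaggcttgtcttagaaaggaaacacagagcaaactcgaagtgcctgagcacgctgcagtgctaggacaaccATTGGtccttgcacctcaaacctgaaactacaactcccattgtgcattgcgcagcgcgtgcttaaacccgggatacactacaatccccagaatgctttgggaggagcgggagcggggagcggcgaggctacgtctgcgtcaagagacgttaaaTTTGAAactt
Espl1: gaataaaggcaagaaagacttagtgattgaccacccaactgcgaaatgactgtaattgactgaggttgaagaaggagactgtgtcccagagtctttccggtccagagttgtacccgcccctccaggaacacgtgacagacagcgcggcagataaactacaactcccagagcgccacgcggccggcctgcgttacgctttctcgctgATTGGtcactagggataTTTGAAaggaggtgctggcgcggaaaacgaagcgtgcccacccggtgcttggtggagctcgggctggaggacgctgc

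The RefSeq windows were matched for 35 of the 40 tested list members. TTTGAA was in 26 of the 35 (74.3%) and CCAAT in 28 (80%), against 12.3% and 38.6% of the 10276 windows of all genes tested that were matched. The Nusap1 window held neither. TTTGAA was in 4 of the 28 matched S phase genes (14.3%) and in 4 of the 61 matched ribosomal protein genes (6.56%). A match describes letters only.

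S phase genes (35 tested) were also higher, with smaller medians. At an unadjusted p under 0.05, 13 were higher (37.1%, against 6.3% of all genes tested) and 0 lower, and without KO2 9 were higher (25.7%, against 4.45%) and 0 lower. The medians by library were 0.13, 0.54 and 0.21 in the KO libraries and -0.06, -0.06 and 0.13 in WT. The list's median log2 fold change was 0.32 with KO2 and 0.13 without. Clspn, an adaptor of the replication checkpoint, was at 4.57, 4.28 and 5.54 CPM in WT and 7.87, 18.7 and 8.74 CPM in Usp21 KO.

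Cytosolic ribosomal proteins (81 tested) were lower in the 3 KO libraries. At an unadjusted p under 0.05, 44 were lower (54.3%) and 0 higher, both with and without KO2, against 4.35% of all genes lower with KO2 and 5.47% without. All KO libraries lay below all WT libraries in 46 members, against 8.0% of all genes. The medians by library were -0.22, -0.57 and -0.20 in Usp21 KO and 0.02, 0.0057 and -0.03 in WT, so that KO2 again lay farthest. Rpl37a was at 117, 108 and 99.4 CPM in WT and 73.6, 73.4 and 79.7 CPM in Usp21 KO, and Rps21 at 312, 285 and 273 CPM in WT and 195, 170.3 and 237 CPM in Usp21 KO. No member passed in edgeR's test and DESeq2 called 14 lower. Ribosomal proteins have many pseudogene copies, so single values are uncertain.

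Oxidative phosphorylation subunits (74 tested) were lower in 27 members (36.5%) at an unadjusted p under 0.05 with KO2 and in 36 (48.6%) without, against 4.35% and 5.47% of all genes, and higher in 0 in either. Here KO1 lay farthest, with medians of -0.25, -0.10 and -0.11 in the KO libraries against 0.05, -0.06 and 0.0092 in WT. Uqcrh, a subunit of complex III, was at 173, 159 and 157 CPM in WT and 124, 120.5 and 132 CPM in Usp21 KO. Translation factors (32 tested) had 12 lower with KO2 (37.5%) and 13 without (40.6%), and heat shock and chaperone genes (27 tested) 12 (44.4%) and 11 (40.7%), against the same shares of all genes. Eif3h, a subunit of the initiation factor that binds the small ribosomal subunit, was at 344, 319 and 320.2 CPM in WT and 249, 259 and 262 CPM in Usp21 KO. Cct4, a subunit of the cytosolic chaperonin, was at 354, 351 and 321 CPM in WT and 276, 263 and 284 CPM in Usp21 KO. Of these 3 lists no member passed in edgeR's test, while DESeq2 called 5 oxidative phosphorylation, 5 translation factor and 2 heat shock and chaperone genes, all lower.

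Most other lists had median log2 fold changes near 0. Treg identity genes (29 tested) had a median log2 fold change of -0.06, TCR signalling genes (34) -0.05, NF-kB genes (27) 0.08, TGF-beta genes (18) -0.01, IL-2 and STAT5 genes (20) -0.00073 and type I interferon response genes (30) -0.06. SAGA complex subunits (26), the deubiquitinase-bearing coactivator that holds Usp22, had a median of -0.0046, and the other ubiquitin-specific proteases (34) one of 0.00070. In the histone H2A and H2B deubiquitinase and ligase list, Usp21 was the only member that passed. Glycolysis (22), cholesterol synthesis (22), unfolded protein response (24) and p53 and apoptosis (21) had medians of 0.10, -0.11, -0.04 and 0.03. Some of these lists nevertheless held more members at an unadjusted p under 0.05 than all genes did. Type I interferon response genes had 6 of 30 lower (20%, against 4.35%). In 8 of the 30 all KO libraries lay below all WT libraries, against 8.0% of all genes. Cholesterol synthesis had 3 of 22 lower (13.6%), with 6 below without overlap, and TCR signalling 4 of 34 lower (11.8%), with 7, against the same shares. Glycolysis had 4 of 22 higher (18.2%, against 6.3%), with 6 above without overlap, against 8.06% of all genes. IL-2 and STAT5 genes had 3 of 20 higher (15%) and 0 lower. The p53 and apoptosis list had 3 of 21 higher (14.3%) and 2 lower (9.52%). All these list values are with KO2. Without KO2, unfolded protein response genes had a median of -0.10, with 6 of 24 lower (25%, against 5.47%) and 0 higher. TGF-beta genes then had 3 of 18 higher (16.7%, against 4.45%) and 0 lower. Type I interferon response genes had 5 of 30 lower (16.7%) and 0 higher without KO2. Socs2, a STAT5 target, was at 40.9, 45.4 and 44.6 CPM in WT and 68.6, 88.3 and 53.3 CPM in Usp21 KO, and passed in DESeq2 (adjusted p = 0.00779) but in neither edgeR fit.

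Markers of other cell types differed between libraries within each group. The summed level of the 27 myeloid markers tested was 453, 199 and 474 CPM in WT and 219, 756 and 393 CPM in Usp21 KO. The 15 B cell markers summed to 74.4, 41.8 and 84.7 CPM in WT and 45.0, 65.4 and 67.6 CPM in Usp21 KO, and the 15 erythroid and platelet markers to 175, 143 and 167 CPM and 215, 251 and 168 CPM. KO2 was highest for myeloid and erythroid markers, and WT2 lowest for B cell and myeloid markers. The 23 CD8 T and NK cell markers summed to 164, 150.0 and 167 CPM in WT and 123, 144 and 134 CPM in Usp21 KO, and the 14 conventional CD4 T cell markers to 5723, 5673 and 5884 CPM and 5626, 4668 and 5805 CPM. Among these markers, Gp1bb was at 0 in all 6 libraries and Ly6g at 0 in 4, while Camp and Tnfrsf17 were at 0 in WT2. The part of such transcripts in the values of KO2 was not tested.

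With a gap of at least 0.5, 0.454% of all genes tested were shared upwards and 0.193% downwards. Of 154 immunoglobulin segments tested, 17 were among the 68 genes shared upwards and 1 among the 29 shared downwards. Their summed level was 1497, 1249.5 and 1829.9 CPM in WT and 1459, 4150.4 and 3500.4 CPM in Usp21 KO, so KO1 was within the WT range. The 10 plasma cell markers summed to 346, 324 and 360.2 CPM in WT and 328, 472 and 433 CPM in Usp21 KO, and Jchain, the joining chain of secreted antibody, was at 29.8, 9.92 and 42.9 CPM and 20.3, 101.2 and 110.5 CPM. The higher values stood in KO2 and KO3, and their source was not tested. Prdm1 and Irf4 of the plasma cell list are also on the effector list. The plasma cell sum of KO2 is therefore not independent of how KO2 was singled out.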

How the data were processed

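RNA was sequenced from sorted splenic Treg cells of 3 genotypes, with 3 libraries each. The submitters' processing notes name cutadapt 1.13, STAR, HTSeq 0.6.1p1, DESeq2 1.14.1 and mm10, with no role or order. The deposited values are raw whole-number counts per gene, not normalized by the authors. All 9 libraries were fitted by group with edgeR 4.0.16 (R 4.3.3) on the counts: filterByExpr, TMM scaling, a robust quasi-likelihood fit, Benjamini-Hochberg adjustment over all genes tested and a threshold of 0.05. Log2 CPM for gaps between libraries used a prior count of 2. No library pair agreed within sampling noise (chi-square divided by degrees of freedom was at least 5.01), so all were kept as separate samples. On simulated data of 14994 genes for Usp21 KO against WT, 61.2% of genes changed 2-fold and 35.3% of those changed 1.5-fold were called, and 0.0608% of unchanged genes. The simulation held no library set apart across many genes as KO2 is, so these shares need not hold for the real libraries. A gene that was not called is therefore not shown to be unchanged. P-values of the main fit set the group difference against the spread among replicates, estimated over all 9 libraries.

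Genes were named by rule: Usp21, Usp22 and Foxp3; all genes passing with or without Usp21 KO replicate 2; the 12 largest gaps in each direction, for changes shared by the 3 KO libraries (gap of at least 0.5) and for replicate 2 alone (gap of at least 1), at a mean log2 CPM of at least 1, leaving out gene models, receptor segments, pseudogenes and sex-linked genes; and up to 4 members of each of 30 lists. Some genes that the rule or the lists hold are not reported here. Fewer than 12 qualified for the shared lower changes. The members and lists were chosen with earlier results of these data known. Gene positions and transcripts came from GENCODE M21, in which 54165 of the gene identifiers were found, and promoters from RefSeq on GRCm38.p6. Alternatives covered scaling by median-ratio size factors or library totals, the filter, DESeq2 1.42.0, limma voom 3.58.1, the libraries fitted, a replicate block and leaving out each library.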

Additional observations from a re-analysis of the deposited data

How the results depend on the processing

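The number of genes passing was 2 with library totals, median-ratio size factors, limma voom, the stricter filter and the replicate block. It was 1 with the 6 libraries alone, 40 with no filter and 216 with DESeq2. Settings chosen after seeing the data gave 13 for the 6 libraries alone without Usp21 KO replicate 2 and 201 for DESeq2 without it. Leaving out 1 library gave 2 to 17 genes passing, the highest without Usp21 KO replicate 2 and 4 without replicate 3, and 998 to 2129 genes at an unadjusted p under 0.05, the lowest without WT replicate 1. The cause was not tested. Genes with all 3 KO libraries beyond WT numbered 2408 with no minimum gap and 22 with a gap of 1, and genes in which KO2 stood alone 2127 with a gap of 0.5. The log2 fold change of Usp22 ran from -0.0306 (without Usp21 KO replicate 1) to 0.1322 (without replicate 2) and the log2 fold change of Atf3 from -2.7852 (without Usp21 KO replicate 1) to 0.0341 (without WT replicate 2), so both turned sign, neither being called. Of the counts over all genes, 11 moved by over 1.5 times, all given above, and 24 did not. Of the values for named genes, lists and spread under all settings, 3007 kept direction and side of the threshold, 84 came past it, 1 was lost, 17 moved and 2 (Usp22 and Atf3) turned sign. Depth limits genes with few reads, such as 5830416I19Rik in WT.

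The replicate numbers did not pair the samples: same-numbered WT and Usp21 KO libraries had correlations of -0.26, -0.27 and 0.16 between their deviations from the group means. With the replicate block, 2 genes passed and 1461 had an unadjusted p under 0.05.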

Other observations

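WT2, the WT library with the most genes standing apart, had the highest level of immediate early genes. The medians of that list of 26 genes by library were -0.29, 0.75 and -0.38 in WT and 0.21, -0.62 and -0.60 in Usp21 KO. Atf3, a stress-induced transcription factor, was at 1.48, 18.2 and 1.67 CPM in WT and 2.66, 1.15 and 0.902 CPM in Usp21 KO. Rgs1, a regulator of chemokine receptor signalling, was at 238, 731 and 243 CPM in WT and 336, 145 and 197 CPM in Usp21 KO, and Cd69, an early activation marker, at 137, 341 and 149 CPM in WT and 152, 76.4 and 103 CPM in Usp21 KO. The list's median log2 fold change was -0.29 with WT2 and 0.21 without it, so the direction of the list rested on that library. KO1 was the KO library nearest to WT2 in these genes.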
